A study of Mus musculus with 66 samples.

Results

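The meiosis and piRNA germline genes described here are 38 genes that germ cells use to enter meiosis, to pair and recombine their chromosomes, and to silence transposons with small RNAs. They were chosen by symbol, with no measured value in the rule itself, but with earlier results of these data known. All 38 were found among the 55487 genes of the deposited tables. The samples are RNA libraries of E14 cells, a line of mouse embryonic stem cells, in 3 groups. Wildtype had 3 libraries, and the genotype labelled Praf2 G4 Deletion had 2 libraries named GDel1 and 2 named GDel2, where G4 stands for a G-quadruplex, a fold that guanine-rich strands can form. All 7 libraries came from untreated cells grown in serum-containing medium with LIF and inhibitors of GSK and MEK1/2. Whether GDel1 and GDel2 are separate clones, and whether replicates are separate cultures, is not stated in the labels, so p-values measure the spread between these libraries, which may be technical.

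Meiosis is the division that makes haploid germ cells. Retinoic acid signalling induces Stra8, cohesin rings with meiosis-specific subunits hold a chromosome axis together, the synaptonemal complex zips paired axes, and programmed breaks are repaired as crossovers. In the male germline, PIWI proteins carry piRNAs, small RNAs that guide transposon silencing, and Tudor-domain proteins gather them in granules called nuage. Embryonic stem cells do not enter meiosis, and many germline promoters are rich in CpG and are held silent there by DNA methylation and by a Polycomb complex, PRC1.6, whose subunits MGA with MAX and E2F6 recognise the E-box CACGTG and the site TCCCGC.

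Promoters are shown for the members that changed most in GDel2 among those with a promoter entry, because they carry or lack these letters. Rnf17, the member that fell most, had no entry, nor had Tex11. RefSeq windows of the GRCm38.p6 assembly, from 250 bases before to 50 after a start site, were held for 32 of the 38 members (41 windows, since some genes have several starts). The stretches below are the bases ahead of the outermost annotated start of the gene, 5′ to 3′ on the strand of the gene. Capitals mark CACGTG and TCCCGC on either strand, the latter read as GCGGGA where it lies on the opposite strand. The first 3 belong to genes of the chromosome axis and synaptonemal complex that rose in GDel2, the fourth to the piRNA helicase that rose in GDel2, and the last to a cohesin subunit that fell.
Sycp3, chr10:88459337-88459586, plus strand: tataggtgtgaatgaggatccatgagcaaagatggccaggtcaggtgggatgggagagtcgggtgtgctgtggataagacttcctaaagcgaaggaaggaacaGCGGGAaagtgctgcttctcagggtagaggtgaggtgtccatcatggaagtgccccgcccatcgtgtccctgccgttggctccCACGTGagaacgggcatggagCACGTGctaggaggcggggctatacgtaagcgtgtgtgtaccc
Hormad1, chr3:95559427-95559676, plus strand: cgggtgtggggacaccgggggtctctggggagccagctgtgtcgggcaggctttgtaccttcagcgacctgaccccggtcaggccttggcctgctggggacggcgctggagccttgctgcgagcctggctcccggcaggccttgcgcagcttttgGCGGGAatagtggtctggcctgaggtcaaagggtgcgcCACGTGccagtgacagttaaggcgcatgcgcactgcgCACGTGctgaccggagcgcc
Hormad2, chr11:4441199-4441332, minus strand: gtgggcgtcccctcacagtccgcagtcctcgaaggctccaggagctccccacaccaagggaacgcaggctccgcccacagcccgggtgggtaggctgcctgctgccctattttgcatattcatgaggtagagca
Mov10l1, chr15:88982744-88982890, plus strand: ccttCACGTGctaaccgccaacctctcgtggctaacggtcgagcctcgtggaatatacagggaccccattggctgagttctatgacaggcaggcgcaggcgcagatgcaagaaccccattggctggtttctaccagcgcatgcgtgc
Rec8, chr14:55617916-55618001, plus strand: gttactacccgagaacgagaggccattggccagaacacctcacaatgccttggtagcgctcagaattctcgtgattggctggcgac
Sycp3 had CACGTG at 64 and 43 bases and TCCCGC at 147 bases before its start, and Hormad1 had CACGTG at 57 and 20 bases and TCCCGC at 95. Mov10l1 had CACGTG at 246 bases before the start used for its window. The Rec8 window held TCCCGC 38 bases before its start, downstream of the stretch printed. Neither motif was in the windows of Hormad2 and Stra8, and the Stra8 window lay inside the span of the annotated gene and is not printed.

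CACGTG, read on both strands, was in 17 of the 41 member windows (41.5%) and in 7.2% of all 32851 windows of the same length. Among windows with at least 10 CpG, the shares were 47.2% of 36 member windows and 10.9% of 14281 in all. TCCCGC was in 36.6% of member windows and 20% of all windows, and with at least 10 CpG in 41.7% and 40.3%. Both motifs were in 22.0% of member windows and 2.0% of all, and in no member window did they overlap (0 windows). The median ratio of observed to expected CpG was 0.733 in member windows and 0.384 in all windows. These are matches of letters and do not show binding.

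Libraries held 12316853 to 18762704 expected counts. Mitochondrial transcripts took 6.30% to 6.89% of counts in wildtype, 9.91% and 4.83% in GDel1 replicates 1 and 2, and 6.19% and 9.60% in GDel2 replicates 1 and 2. A chi-square per degree of freedom between replicates was 4.45 to 6.61 in wildtype, 20 in GDel2 and 60.3 in GDel1. Praf2, named in the genotype label, was at 27.5, 28.8 and 30.6 CPM (counts scaled by the TMM library size) in wildtype, 10.1 and 9.26 in GDel1 and 13.1 and 14.1 in GDel2, so that every library of the deletion lay below every wildtype library. All 10 pluripotency markers passed the filter on low counts, with a summed TPM (the authors' share of transcripts, scaled for length) of 717 to 1204 per library, while 8 of 10 spermatid and sperm markers had 0 counts in all 7 libraries.

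None of the 38 members was silent, if silent means 0 counts in every library. The members together summed to 102, 83.2 and 83.7 TPM in wildtype replicates 1 to 3, to 59.97 and 62.3 TPM in GDel1, and to 101 and 89.3 TPM in GDel2. The TPM of all genes shifted too, with a median change from wildtype of -0.3 in GDel1 and -0.046 in GDel2 on log2(TPM + 1). A lower TPM in GDel1 is thus not particular to the members, here and in the TPM values below. On the TPM scale 17 members were expressed, taken as at least 1 TPM in the highest group mean. Another 14 were low, between 0.1 and 1 TPM there, and 7 were at a trace, under 0.1 TPM in every group. The trace members were Sycp2, Spo11, Mei1, Piwil4, Tdrd1, Tdrd6 and Tdrd9, with 1 to 72 counts over all libraries. Spo11, the enzyme that makes the programmed breaks of meiosis, had 1 count in wildtype replicate 3 and none elsewhere. With CPM in place of TPM, 2 members were at a trace, 13 low and 23 expressed.

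A single member carried about 27.2% to 34.4% of the summed TPM in each library. It was Syce2, which encodes a central element of the synaptonemal complex, at 31.0, 22.7 and 25.1 TPM in wildtype, 20.7 and 18.8 TPM in GDel1 and 27.5 and 27.2 TPM in GDel2. Rnf17, a Tudor protein of male germ cells, came next at 17.6, 16.4 and 14.5 TPM in wildtype. Rec8, a meiotic cohesin subunit, followed in wildtype at 7.83, 7.57 and 6.44 TPM. By wildtype mean the order went on with Mlh3, Stag3, Ythdc2 and Dazl. Mlh3, a crossover nuclease subunit with a role in mismatch repair, had 7.49, 6.03 and 5.74 TPM in wildtype. The cohesin subunit gene Stag3 had 6.79, 5.26 and 4.87 TPM and the RNA helicase gene Ythdc2 6.25, 4.45 and 4.79 TPM there, ranges that overlapped with that of Mlh3. Dazl, a germline RNA-binding protein, had 4.25, 4.86 and 3.63 TPM in wildtype. The wildtype levels from Rec8 down to Dazl thus ran into those of their neighbours, while those of Syce2 and Rnf17 stood clear of them and of each other.

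**Figure D1:**
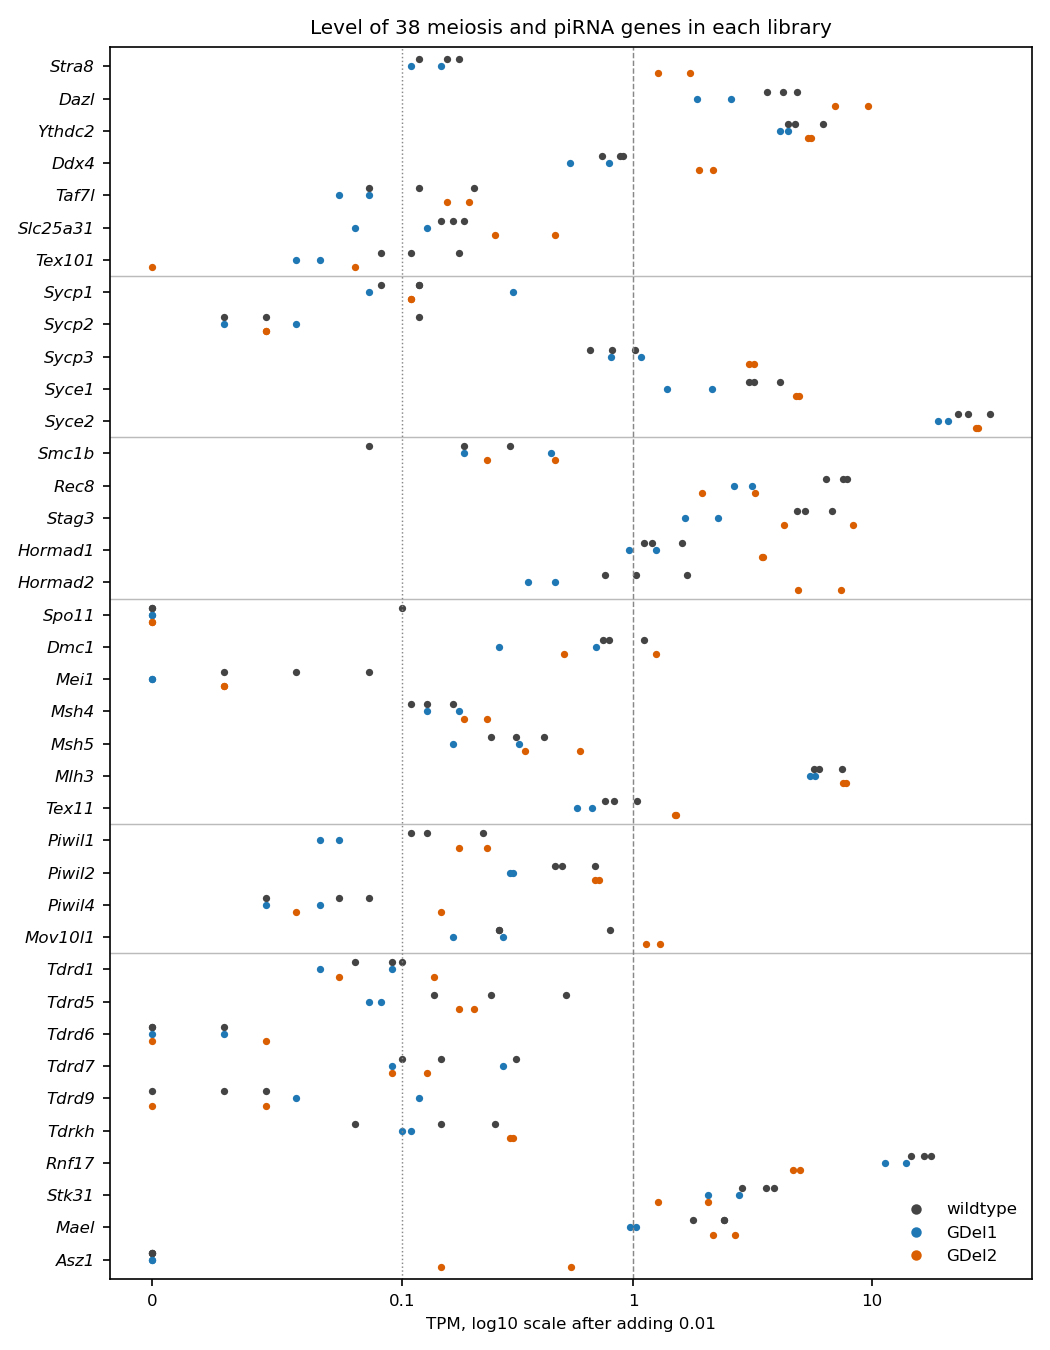
TPM of each of the 38 members in each library, on a log10 axis after adding 0.01, with wildtype in grey, GDel1 in blue and GDel2 in orange, and members grouped by role. The dotted line marks 0.1 TPM and the dashed line 1 TPM; Stra8, Sycp3, Hormad1, Hormad2 and Mov10l1 in GDel2 lie to the right of all wildtype libraries, and Rnf17 and Rec8 to the left.

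In GDel2, 10 members were higher than in wildtype and 3 were lower at an adjusted p under 0.05 (edgeR quasi-likelihood test, Benjamini-Hochberg over 15421 genes), which is 26.3% and 7.9% of the 38. Over all genes tested, 17.4% were higher and 15.6% lower. The higher members were Stra8, Dazl, Ddx4, Sycp3, Stag3, Hormad1, Hormad2, Mlh3, Tex11 and Mov10l1, and the lower ones were Rnf17, Rec8 and Stk31. Only 28 of the 38 members had enough counts to be tested. The shares of the 38 thus count untested members as not called, while those over all genes hold tested genes only. With no filter on low counts all 38 could be tested, 14 were higher (36.8%, against 10.8% of 27470 genes) and 3 lower (7.89%, against 11.0%). The median log2 change of the 38 was then 0.41, and that of all genes was 0. The filter had kept 28 of the 38 members but only 15421 of the 27470 genes. Genes with few counts, which are harder to call, therefore weigh more in the shares over all genes with no filter, here and below.

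In GDel1, edgeR called 0 of 38 members higher and 0 lower, where 0.162% of all genes were higher and 0.214% lower. At an unadjusted p under 0.05, 10 of the 28 members tested stood apart, 2 above and 8 below wildtype. So did 3776 of all 15421 genes tested. The nearest to the threshold were Stag3 at a log2 change of -0.85 (adjusted p = 0.05285), Hormad2 at -1.14 (0.06325) and Dazl at -0.57 (0.07528), each with both GDel1 libraries below all wildtype libraries. This outcome depended on the fit. DESeq2 called Stag3 lower (adjusted p = 0.001447), among 439 of 15421 genes called lower. On log2(TPM + 1) 5 members were lower, where 3220 of 15421 genes were lower and 30 higher. With no filter 5 members were lower (Rec8, Dazl, Hormad2, Stag3 and Tdrd5), which is 13.2% of the 38, against 3.77% of 27470 genes. There 4.81% of all genes were higher. Without GDel1 replicate 1 and GDel2 replicate 2, the libraries with the highest mitochondrial share, each deletion had 1 library, assumed to vary as wildtype does. In that fit the median log2 change of the members tested was -0.172 in GDel1, against -0.006 over all genes. In GDel2 it was 0.555, against 0.005 over all genes.

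GDel1 and GDel2 share their genotype label but differed in these genes. In GDel2 against GDel1, 14 of the 28 members tested were higher and 3 lower. These are 36.8% and 7.9% of the 38, tested or not, against 14.8% and 12.8% of all genes tested. With no filter 16 were higher (42.1%, against 9.17%) and 3 lower (7.89%, against 10.5%). With both deletions taken as 1 group of 4, edgeR called 0 of 38 members (0.0% of all genes higher and 0.0% lower), and with no filter again 0 (0.0% of all genes higher and 0.00364% lower). In the edgeR fit with the filter, 5 of the 28 members tested had an unadjusted p under 0.05, as did 2930 of all 15421 genes. DESeq2 called Mlh3 higher (adjusted p = 0.01454) and Rec8 lower (adjusted p = 0.03494), among 969 genes called. GDel2 against wildtype and GDel2 against GDel1 share the GDel2 libraries, so they do not count as separate evidence.

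**Figure D2:**
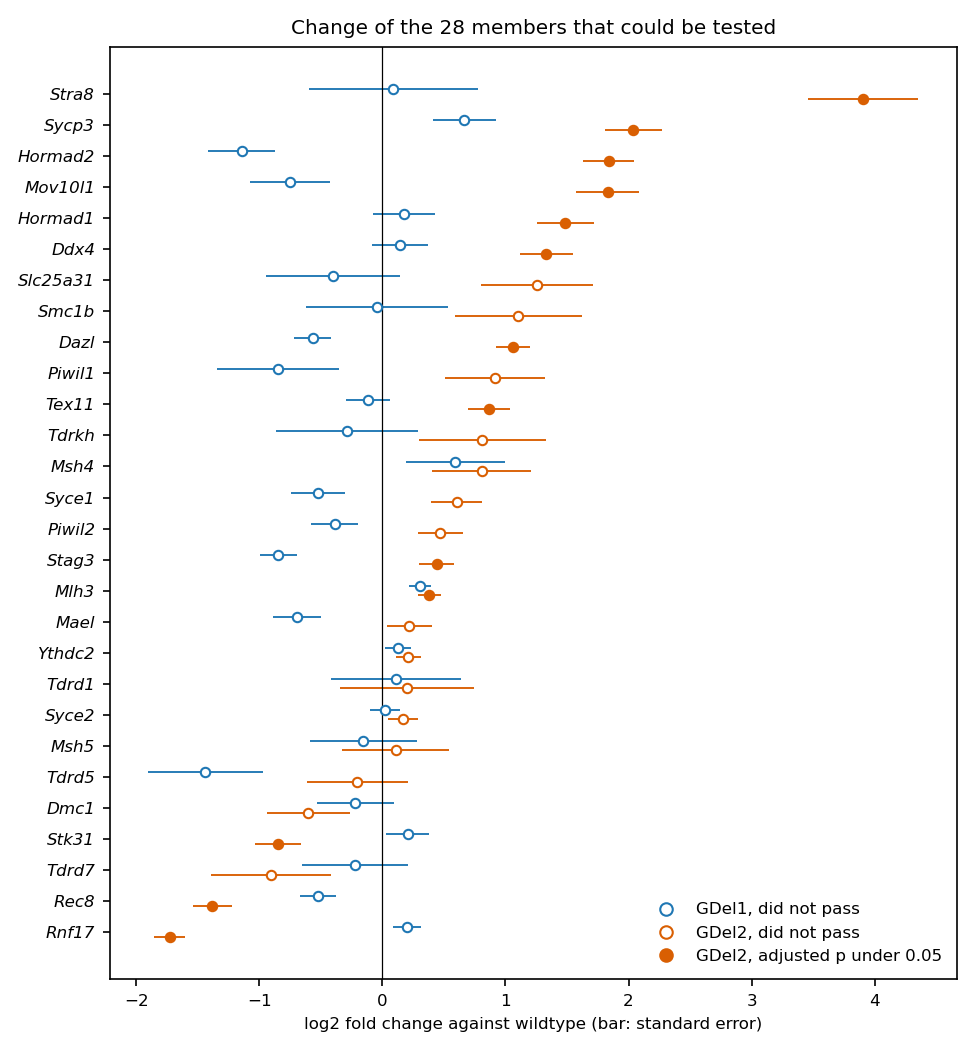
Log2 fold change against wildtype of the 28 members that could be tested (points, with bars for 1 standard error), GDel1 in blue and GDel2 in orange; filled points passed an adjusted p under 0.05 in edgeR. The 13 filled points are all of GDel2, from Stra8 at 3.91 to Rnf17 at -1.73, and no GDel1 point is filled.

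Among the 7 regulators of meiotic entry and germline RNA, 3 rose in GDel2, 2 were tested and did not pass, and 2 (Taf7l and Tex101) had too few counts. Counts by role, here and below, stand beside 17.4% higher and 15.6% lower over all genes tested, and no role was tested as a group. Stra8, the gene that retinoic acid induces as germ cells commit to meiosis, was at 0.074, 0.309 and 0.210 CPM in wildtype, 0.080 and 0.312 in GDel1, and 3.39 and 2.96 in GDel2. These are 1, 5 and 4 counts in wildtype, 1 and 6 in GDel1, and 43 and 41 in GDel2, so GDel1 overlapped wildtype and GDel2 lay far above both. Its log2 change in GDel2 was 3.91 (SE 0.449, adjusted p = 0.0003505, 15.0-fold). Only the GDel2 libraries of Stra8 reached the count minimum, so it was tested through the group in which it was high. It was also called with no filter on low counts. Stra8 is on chromosome 6, where the median of 658 tested genes was 0.506 higher on the log2 scale in GDel2, and the part of that shift in the result was not tested.

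Dazl, which binds germline messenger RNAs and licenses germ cells for gametogenesis, was at 8.39, 9.96 and 9.45 CPM in wildtype, 7.003 and 5.62 in GDel1, and 18.7 and 20.1 in GDel2. The 3 groups did not overlap, with GDel1 lowest and GDel2 highest. In GDel2 the log2 change was 1.06 (SE 0.139, adjusted p = 0.0006744). Ddx4, the germ cell helicase also called Vasa, was at 2.65, 3.96 and 3.73 CPM in wildtype, 3.14 and 4.42 in GDel1, and 8.76 and 8.75 in GDel2. GDel1 overlapped wildtype and GDel2 stood above both, by a log2 change of 1.33 from wildtype (SE 0.212, adjusted p = 0.001811).

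Slc25a31, a germ cell ADP/ATP carrier of mitochondria, had 0.515, 0.557 and 0.473 CPM in wildtype, 0.563 and 0.260 in GDel1, and 0.789 and 1.66 in GDel2. It too reached the count minimum only in GDel2, and it passed in GDel2 against GDel1 (log2 change 1.65, SE 0.533, adjusted p = 0.04809) and missed in GDel2 against wildtype (1.25, adjusted p = 0.06245). The call against GDel1 was lost with DESeq2 (adjusted p = 0.1805) and without any of 5 single libraries: wildtype replicates 1, 2 and 3 (0.07405, 0.07618 and 0.07619), GDel1 replicate 2 (0.2231) and GDel2 replicate 2 (0.314). Ythdc2, an RNA helicase needed for meiotic entry, had 42.4, 38.4 and 39.3 CPM in wildtype, 44.6 and 42.8 in GDel1 and 42.1 and 50.5 in GDel2. Its log2 change of 0.21 in GDel2 did not pass (adjusted p = 0.1538). Taf7l, a germ cell form of a TFIID subunit, had 32 counts over the 7 libraries, and Tex101, a germ cell surface protein, had 11.

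Of the 5 genes of the synaptonemal complex, 1 rose in GDel2, 2 did not pass and 2 could not be tested. Sycp3, a component of the lateral elements that run along each chromosome axis, was at 1.10, 1.052 and 1.52 CPM in wildtype, 1.77 and 2.13 in GDel1, and 4.81 and 5.42 in GDel2. No library of 1 group reached into another group, in the order wildtype, GDel1, GDel2. The log2 change in GDel2 was 2.04 (SE 0.233, adjusted p = 0.0003404), and in GDel1 it was 0.67 (SE 0.255, adjusted p = 0.1545).

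Syce1, of the central element, had 7.43, 6.56 and 6.83 CPM in wildtype, 6.12 and 3.70 in GDel1, and 9.55 and 11.5 in GDel2. It missed the threshold against wildtype in GDel2 (log2 change 0.60, adjusted p = 0.05124) and passed against GDel1 (1.13, SE 0.236, adjusted p = 0.008283; 0.05986 without GDel2 replicate 2). Syce2 had 30.5, 26.4 and 28.6 CPM in wildtype, 32.2 and 25.7 in GDel1, and 30.5 and 33.3 in GDel2, and did not pass in any comparison. Its chromosome 8 had a median log2 change of 0.444 over 712 genes in GDel2, and Syce2 itself changed by 0.17 (SE 0.122, adjusted p = 0.3362). Sycp1, the transverse filament that spans the paired axes, had 28 counts over all libraries, and Sycp2, the partner of Sycp3, had 12. The level of the complex was thus uneven, with its central element gene Syce2 at 18.8 to 31.0 TPM over the libraries and its filament gene at a mean of 0.11 TPM in wildtype.

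The 5 genes of meiotic cohesin and the chromosome axis could all be tested, and 3 rose and 1 fell in GDel2. Hormad2, a HORMA-domain protein that marks unpaired axes, was at 1.40, 1.24 and 1.58 CPM in wildtype, 0.644 and 0.625 in GDel1, and 5.21 and 4.92 in GDel2. GDel1 lay below and GDel2 above all wildtype libraries. The log2 change in GDel2 was 1.84 (SE 0.207, adjusted p = 0.0003236) against wildtype and 2.98 (SE 0.264, adjusted p = 0.0001397) against GDel1. The tables also give a mean transcript length per library, and that of Hormad2 was 1144, 1136 and 733 bases in wildtype and 614 and 718 in GDel2. Its TPM therefore differed more than its counts, from a mean of 1.16 TPM in wildtype to 6.18 TPM in GDel2.

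Hormad1, its paralog on axes, was at 2.06, 2.29 and 3.36 CPM in wildtype, 2.66 and 3.18 in GDel1, and 6.71 and 7.88 in GDel2. GDel1 and wildtype overlapped, and GDel2 stood above both with a log2 change of 1.49 from wildtype (SE 0.230, adjusted p = 0.001583). Stag3, a meiosis-specific cohesin subunit, was at 21.1, 23.4 and 20.5 CPM in wildtype, 10.7 and 13.3 in GDel1, and 33.1 and 25.9 in GDel2. Again the groups did not overlap, with GDel1 lowest and GDel2 highest. Against wildtype its log2 change in GDel2 was 0.44 (SE 0.141, adjusted p = 0.04073), a call lost with DESeq2 (adjusted p = 0.06732), on log2(TPM + 1) (0.8341), without wildtype replicate 1, 2 or 3 (0.1171, 0.06987 and 0.1312) and without GDel2 replicate 1 (0.3297). Against GDel1 the change was 1.29 (SE 0.162, adjusted p = 0.0007446).

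Rec8, the meiotic counterpart of the cohesin ring subunit Rad21, moved the other way. It was at 14.8, 15.6 and 14.7 CPM in wildtype, 11.1 and 9.89 in GDel1, and 6.63 and 4.92 in GDel2. Here too no groups overlapped, with GDel2 lowest. The log2 change was -1.38 in GDel2 (SE 0.158, adjusted p = 0.000346) and -0.52 in GDel1 (SE 0.147, adjusted p = 0.08209). On the TPM scale GDel1 and GDel2 were closer, at means of 2.90 and 2.60 TPM, and the difference between them did not pass there (adjusted p = 0.6638 on log2(TPM + 1)). Smc1b, the meiotic SMC1 subunit, had a log2 change of 1.11 in GDel2 (SE 0.516, adjusted p = 0.1337), with libraries that overlapped.

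**Figure D3:**
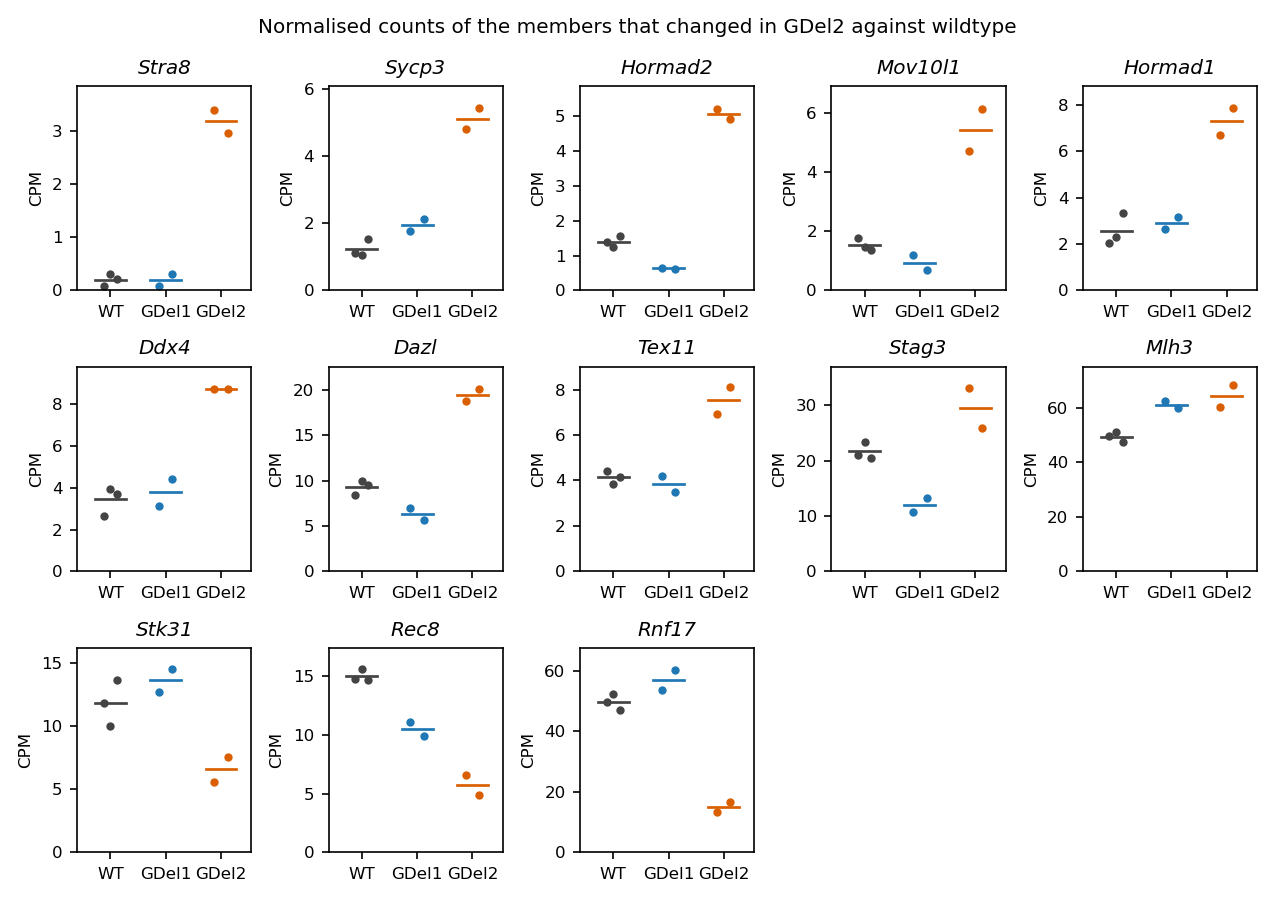
CPM of the 13 members that passed in GDel2 against wildtype, 1 point per library and a line at the mean of each group, on axes that start at 0. GDel2 points lie above every wildtype point in 10 panels and below in the panels of Stk31, Rec8 and Rnf17.

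Of the 7 recombination genes, 2 rose in GDel2, 3 did not pass and 2 (Spo11 and Mei1) could not be tested. Tex11, an X-linked gene needed for crossovers, was at 4.42, 3.84 and 4.15 CPM in wildtype, 4.19 and 3.49 in GDel1, and 6.94 and 8.10 in GDel2. Only the GDel2 libraries stood clear of wildtype, by a log2 change of 0.87 (SE 0.168, adjusted p = 0.004789), and the call was lost without GDel2 replicate 2 (adjusted p = 0.05128). Mlh3 was at 49.6, 51.0 and 47.5 CPM in wildtype, 62.3 and 59.7 in GDel1, and 60.1 and 68.3 in GDel2. Both deletions lay above wildtype and overlapped each other, at log2 changes of 0.31 in GDel1 (SE 0.092, adjusted p = 0.09348) and 0.38 in GDel2 (SE 0.092, adjusted p = 0.01324). The Mlh3 call in GDel2 was lost on log2(TPM + 1) (adjusted p = 0.3866) and without wildtype replicate 1 (0.05094), wildtype replicate 3 (0.06074) or GDel2 replicate 2 (0.1006).

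The strand-exchange protein gene Dmc1 and the crossover genes Msh4 and Msh5 did not pass in any comparison. Dmc1, at 168 counts over the 7 libraries, had a log2 change of -0.60 in GDel2 (SE 0.335, adjusted p = 0.2041), Msh4 0.81 (SE 0.402, adjusted p = 0.1572) and Msh5 0.11 (SE 0.435, adjusted p = 0.8831). Mei1, needed for break formation, had 5, 1 and 3 counts in wildtype, 0 in both GDel1 libraries and 1 in each GDel2 library. Against a floor of 3 counts over GDel1, the counts observed in wildtype put Mei1 1.94-fold lower in GDel1. The counting error of the wildtype counts and the spread between libraries are left out of that value.

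Of the 3 PIWI genes and the helicase Mov10l1, only Mov10l1 passed in GDel2 against wildtype. Mov10l1, which unwinds piRNA precursors, was at 1.77, 1.49 and 1.37 CPM in wildtype, 1.21 and 0.677 in GDel1, and 4.74 and 6.14 in GDel2. The groups did not overlap and GDel2 was highest, with a log2 change of 1.83 from wildtype (SE 0.259, adjusted p = 0.001007) and 2.58 from GDel1 (SE 0.316, adjusted p = 0.0006508). Piwil2, the mouse Mili protein that loads piRNAs in fetal and adult male germ cells, had 4.49, 3.90 and 3.62 CPM in wildtype, 3.14 and 2.97 in GDel1, and 4.97 and 6.07 in GDel2. Its groups were also ordered without overlap, yet it missed the threshold against wildtype in GDel2 (log2 change 0.47, adjusted p = 0.077). Piwil1, the Miwi protein of later male germ cells, had 0.736, 0.371 and 0.473 CPM in wildtype, 0.241 and 0.312 in GDel1, and 0.947 and 1.01 in GDel2, with log2 0.91 in GDel2 (adjusted p = 0.1173).

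Against GDel1, Piwil2 was 0.86 higher on the log2 scale in GDel2 (adjusted p = 0.01521; 0.06546 with DESeq2 and 0.09231 without GDel2 replicate 2). Piwil1, which passed the count filter through GDel2, was 1.76 higher (adjusted p = 0.02968), a call lost with DESeq2 (0.1606) and without GDel1 replicate 1 (0.06633), GDel1 replicate 2 (0.07811), GDel2 replicate 1 (0.08979) or GDel2 replicate 2 (0.1121). Piwil4, the Miwi2 protein that directs DNA methylation at transposons, had 23 counts over the 7 libraries and could not be tested.

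Tudor proteins and granule components were the largest group, with 10 members, of which 7 could be tested. The only calls in GDel2 against wildtype were 2 falls, where 15.6% of all genes tested were lower. Rnf17 was at 49.8, 52.3 and 46.9 CPM in wildtype, 53.8 and 60.2 in GDel1, and 13.3 and 16.6 in GDel2. GDel1 lay just above wildtype and GDel2 far below. The log2 change was -1.73 in GDel2 (SE 0.125, adjusted p = 4.284e-05), 3.31-fold lower, and 0.20 in GDel1 (SE 0.112, adjusted p = 0.3066). Stk31, a Tudor-domain kinase-like protein, was at 11.8, 10.02 and 13.6 CPM in wildtype, 12.7 and 14.5 in GDel1, and 5.60 and 7.52 in GDel2. GDel1 overlapped wildtype, and GDel2 was lower by a log2 change of -0.85 (SE 0.188, adjusted p = 0.00896), which was lost without GDel2 replicate 1 (adjusted p = 0.06802). Stk31 lies on chromosome 6 like Stra8 and changed in the opposite direction.

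Mael, a nuage protein, had 4.64, 4.08 and 5.46 CPM in wildtype, 3.14 and 2.76 in GDel1, and 5.68 and 5.35 in GDel2. It passed only in GDel2 against GDel1 (log2 change 0.91, SE 0.210, adjusted p = 0.01297; 0.06762 without GDel2 replicate 1). Tdrd1, Tdrd5, Tdrd7 and Tdrkh, scaffolds of the granules, were tested and passed in no comparison, with log2 changes in GDel2 of 0.20, -0.21, -0.91 and 0.81 in that order. Tdrd5 had the lowest change in GDel1, -1.44 (SE 0.464, adjusted p = 0.1083). Tdrd6 had 5 counts and Tdrd9, a piRNA helicase with a Tudor domain, had 10 over the 7 libraries.

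Asz1, an ankyrin-repeat protein that anchors nuage at mitochondria, was absent from the counts of 5 libraries and present in GDel2. It had 0 counts in the 3 wildtype and both GDel1 libraries, and 7 and 6 counts in GDel2 replicates 1 and 2. Against a floor of 3 counts over the group at 0, the counts observed in GDel2 were 7.98-fold above wildtype and 5.17-fold above GDel1. The counting error of the GDel2 counts is left out of these values. Asz1 is on chromosome 6 too and had too few counts for the main test. In bulk RNA, a few cells with much of a transcript cannot be told apart from many cells with little of it.

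Other genes of the same pathways moved in both directions, and the shares called are to be read against the 17.4% higher and 15.6% lower over all genes tested. Of 30 further meiosis genes in the tables, 21 could be tested, and 3 rose and 1 fell in GDel2 against wildtype (14.3% and 4.8% of those tested). Tex14, of the intercellular bridges of germ cells, rose from 8.75 to 31.9 CPM (log2 1.87, SE 0.142, adjusted p = 5.339e-05), and 4930447C04Rik (Six6os1), a central element gene, rose from 7.05 to 15.0 CPM (1.09, SE 0.145, adjusted p = 0.0007627). Meioc, the partner of Ythdc2, fell from 9.41 to 4.36 CPM (-1.10, SE 0.298, adjusted p = 0.023). Of 15 further piRNA genes, 11 could be tested, and 2 rose and 4 fell (18.2% and 36.4%). Tdrd12, a Tudor helicase, fell from 48.2 to 13.5 CPM (-1.84, SE 0.106, adjusted p = 1.432e-05), as Rnf17 did, while the co-chaperone gene Fkbp6 rose from 4.65 to 11.3 CPM (1.28, SE 0.158, adjusted p = 0.0005076). Exd1 (-0.80, adjusted p = 0.01409) and Dnmt3l (-0.58, adjusted p = 0.001516), which acts with the DNA methyltransferases, also fell.

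Repressors that hold germline genes silent in embryonic stem cells were all measured, and of 26 listed, 5 rose and 5 fell in GDel2 (19.2% each), close to the shares over all genes. The DNA methyltransferase gene Dnmt3b fell from 88.0 to 41.7 CPM (log2 -1.08, SE 0.090, adjusted p = 8.378e-05) and Dnmt3a rose from 32.3 to 60.6 CPM (0.91, SE 0.092, adjusted p = 0.0001937). Cbx3, a heterochromatin protein, rose by 0.79 (adjusted p = 0.000861) and Tfdp1, an E2F partner, by 0.74 (adjusted p = 0.0003315). They lie on chromosomes 6 and 8, whose median log2 changes in GDel2 were 0.506 and 0.444. Upstream of meiosis, 2 of 13 regulators of primordial germ cells rose and 2 fell (25% each of the 8 tested). Prdm1, encoding Blimp1, rose from 2.85 to 12.4 CPM (2.11, SE 0.175, adjusted p = 8.145e-05), the germ cell factor Sohlh2 from 9.71 to 31.3 CPM (1.69, SE 0.136, adjusted p = 7.21e-05), and Tfap2c fell (-0.51, adjusted p = 0.04987). Of 12 retinoic acid genes, 8 could be tested, and 3 rose and 2 fell (37.5% and 25%). The retinoid binding protein genes Crabp1 (1.28, adjusted p = 0.005511) and Crabp2 (1.17, adjusted p = 0.01535) and the receptor gene Rara (0.82, adjusted p = 0.003791) rose, and Dhrs3, which reduces retinal, fell (-0.91, adjusted p = 0.009748).

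Summed markers of other cell states differed between the groups, and their part in the changes of the 38 genes was not tested. The sums are in TPM, and on log2(TPM + 1) the median of all genes was itself -0.3 from wildtype in GDel1. All 6 testable genes of 11 markers of the 2-cell-like state rose. Of these, Zscan4d, Usp17la, Gm8300 and Gm5662 reached the count minimum only in GDel2, so they were tested through the group in which they were high. The count of 6 is therefore partly set by the filter. The list summed to 1.14 to 1.23 TPM in wildtype, 0.41 to 0.46 in GDel1 and 7.51 to 8.40 in GDel2. Of 10 oocyte markers, 2 could be tested and 1 (Zp3) rose. These markers summed to 2.44 to 3.40, 2.03 to 2.13 and 4.13 to 4.26 TPM in the same order, with Oosp1, Figla and Nobox at 0 counts. Of 10 markers of somatic cells of the gonad, only Star, on chromosome 8, could be tested, and it rose. That list summed to 0.33 to 0.57, 0.39 to 0.42 and 0.63 to 0.72 TPM, with Cldn11 and Cyp17a1 at 0. Spermatid and sperm markers summed to at most 0.03 TPM in any library, with Prm1, Prm2, Tnp1 and Tnp2 among the 8 at 0. Fibroblast markers, a check for feeder cells, summed to 20.4 to 25.7 TPM in wildtype, 11.1 to 12.9 in GDel1 and 7.90 to 10.8 in GDel2, with 1 gene higher and 1 lower. Most of that sum was Fbln1, the gene called lower, at means of 20.9, 11.2 and 6.61 TPM. Thy1, the gene called higher, had means of 0.54, 0.205 and 1.81 TPM (log2 change 1.42 in GDel2, adjusted p = 0.01051). Pdgfrb had means of 0.80, 0.43 and 0.685 TPM. Col1a1, Col1a2, Lum and Twist1 were under 0.2 TPM in every group and Col3a1, Dcn and Postn had 0 counts.

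**Figure D4:**
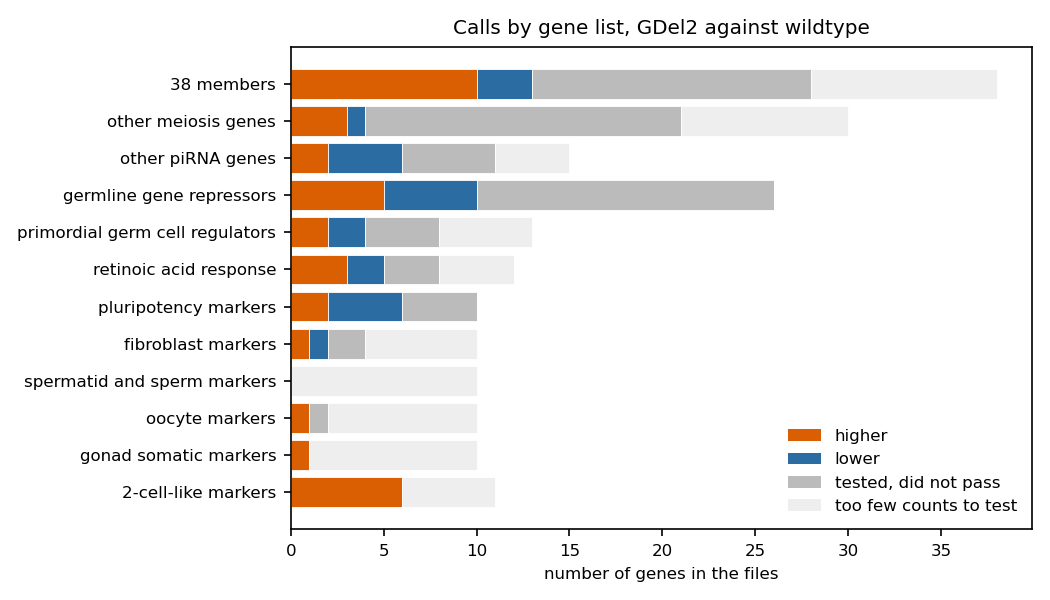
Number of genes in the files for the 38 members and each comparison list, split into those higher (orange), lower (blue) and tested without passing (grey) in GDel2 against wildtype, and those with too few counts to test (pale). The 38 members have 10 higher and 3 lower, further piRNA genes 2 higher and 4 lower, and no spermatid or sperm marker could be tested.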

How the data were processed

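Total RNA depleted of ribosomal RNA was made into strand-marked libraries, per the labels' protocols. The submitters' processing notes name STAR, RSEM and the mm10 build; versions, annotation release and counting strand are not given in the sources used, so reads of a gene and of an overlapping antisense gene may not be told apart. Each deposited table is an RSEM gene result of 1 library. The authors' columns used are expected counts, estimates per gene with no scaling for depth, and TPM that the authors scaled by effective length to the same sum in every library. FPKM, also deposited by the authors, was not used. Deposited lengths per gene are in bases.

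Symbols came from a table of Ensembl gene names (55141 of 55487 identifiers), and positions and promoters from RefSeq, GRCm38.p6. Expected counts were rounded. The filterByExpr function of edgeR (minimum count 10, minimum total 15, 3 groups) kept 15421 genes with 99.88% of the counts. Fits used R 4.3.3 and edgeR 4.0.16 (TMM, robust quasi-likelihood test, Benjamini-Hochberg over all genes kept, threshold 0.05, tests in both directions). Each deletion was compared with wildtype, and GDel2 with GDel1, in 1 fit of 3 groups; the deletion group of 4 was compared in a fit of 2 groups. CPM are rounded counts over the TMM library size, and SE belongs to the log2 change. Alternatives used DESeq2 1.42.0 and limma 3.58.1 on log2(TPM + 1). Only the edgeR fits of each deletion against wildtype were tried on simulated counts, drawn from wildtype means with the same spread in every group. Replicates differed more in the deletions than in wildtype, so that trial does not cover the spread of these data. Fold values for a group at 0 counts use a floor of 3 counts in that group and the observed counts of the other group. They leave out the counting error of the latter and the spread between libraries.

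The members and lists were chosen with earlier results of these data known. All members are accounted for; values per library are given for those past the threshold in GDel1, GDel2 or GDel2 against GDel1 and for the 5 of highest mean TPM. From each other list up to 4 genes past the threshold with the largest change, at 1 CPM or more in the higher group, are named, or else the 2 of highest TPM. Promoter stretches were printed for called members with the largest change. Genes named at 0 counts and those in the alternatives were named after their values were seen. The other 59 of 66 samples were not analysed here. The result for some listed genes is not reported here.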

Additional observations from a re-analysis of the deposited data

Results flagged for a closer look

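These results are listed because GDel2 and GDel1, which share a genotype label, differed in a direct test of 1 group against the other (edgeR, adjusted p under 0.05). On the log2 scale, GDel2 minus GDel1, the regulators of meiotic entry gave 3.82 for Stra8, 1.63 for Dazl, 1.19 for Ddx4 and 1.65 for Slc25a31. The synaptonemal complex gave 1.37 for Sycp3 and 1.13 for Syce1. The axis and cohesin genes gave 1.31 for Hormad1, 2.98 for Hormad2, 1.29 for Stag3 and -0.86 for Rec8. Tex11 gave 0.98, Mov10l1 2.58, Piwil1 1.76 and Piwil2 0.86. Among the Tudor and granule genes, Mael gave 0.91, Rnf17 -1.93 and Stk31 -1.05. The 2 GDel2 libraries lay on 1 side of the 2 GDel1 libraries for each of these 17 genes. The genes were picked by the test on these same libraries, so that separation is not separate evidence.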

How the results depend on the processing

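Of the 13 member calls in GDel2 against wildtype, 9 held under every alternative that could test them (Stra8, Dazl, Ddx4, Sycp3, Rec8, Hormad1, Hormad2, Mov10l1 and Rnf17), and of the 17 in GDel2 against GDel1, 10 did. No value changed sign while called. Deviations of same-numbered libraries from their group means correlated at 0.104 and -0.006 (wildtype with GDel1), -0.111 and -0.09 (wildtype with GDel2) and -0.208 (GDel1 with GDel2). In a group of 2 libraries these deviations are equal and opposite, so they cannot tell whether replicate numbers pair the libraries. With a replicate block, 2296 genes in place of 5099 were called in GDel2 against wildtype (members 7 higher, 2 lower; Tex11 0.05302, Mlh3 0.1199, Stk31 0.07132 and Stag3 0.2037 missed), 1 in place of 58 in GDel1, and 2235 in place of 4268 in GDel2 against GDel1. With crossed numbers in GDel2, chosen after seeing the data, the block called 277 genes in GDel1, 1 of them a member.

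In GDel1 the genes called were 993 with DESeq2 (1 member lower), 3250 on log2(TPM + 1) (5 lower), 2357 with no filter (5 lower), 12 with only the 2 groups and 4252 without GDel1 replicate 1 and GDel2 replicate 2 (2 higher, 5 lower). Leaving out 1 library gave 4 to 1968 (members lower 0 to 4). In GDel2, log2(TPM + 1) gave 2604 genes and leaving out 1 library 2713 to 6531 (members 8 to 12 higher, 2 to 3 lower). In GDel2 against GDel1, only the 2 groups gave 2153 genes, leaving out the 2 libraries named above 5891, log2(TPM + 1) 1 member lower, and leaving out 1 library 2639 to 5586. In the deletion group, DESeq2 called 969 genes (1 member higher, 1 lower), log2(TPM + 1) 2 and no filter 1, in place of 0. The log2(TPM + 1) scale moved the median of all genes by -0.30 in GDel1, -0.05 in GDel2 and 0.24 in GDel2 against GDel1. The share of calls that were higher was then 0.9% in place of 43.1% in GDel1 and 90.3% in place of 53.6% in GDel2 against GDel1. TCCCGCC in place of TCCCGC was in 17.1% of member windows and 11.3% of all, and with at least 10 CpG in 19.4% and 23.4%. Causes were not tested. A deletion left with 1 library was assumed to vary like the other groups. 10 members had too few counts to test with the filter.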

Other observations

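The deposited mean transcript length of Stra8 was 495, 1207 and 1207 bases in wildtype, 495 and 1207 in GDel1, and 1449 and 1455 in GDel2, where all but 17 of its 101 counts lay. Of the called members whose promoters are not printed, Ddx4 had CACGTG and TCCCGC in its window at 29 and 136 bases before the start, and Stag3 at 170 and 2 bases. Stk31, which fell, had CACGTG in both of its windows, at 55 and 120 bases before the start. Tex11 and Rnf17 had no window. Neither motif was in the windows of Dazl and Mlh3. Among 10 pluripotency markers, 2 rose (20%) and 4 fell (40%) in GDel2 against wildtype, beside 17.4% higher and 15.6% lower over all genes tested. The 2 that rose, Nanog and Zfp42, lie on chromosomes 6 and 8, whose median log2 changes in GDel2 were 0.506 and 0.444. The part of those shifts in the 2 rises was not tested.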
